A study of Homo sapiens with 36 samples.

Results

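The G1 cyclins and cyclin-dependent kinase (CDK) inhibitors described here were 10 genes taken by symbol from the count table, out of 60675 genes in all. They were the D-type cyclins CCND1 and CCND3, the E-type cyclins CCNE1 and CCNE2, the CIP/KIP inhibitors CDKN1A (p21), CDKN1B (p27) and CDKN1C (p57), and the INK4 inhibitors CDKN2B (p15), CDKN2C (p18) and CDKN2D (p19). All 10 were found in the table and had counts in all 36 libraries. RNA sequencing covered SW1783, a human astrocytoma cell line, and HT29, a human colorectal adenocarcinoma cell line, each obtained from a cell repository. Per line and batch, 3 libraries were made of every group. In batch B, cells received vehicle (labelled 0.1% DMSO) or ACD, an extract in hot water of the monkshood *Aconitum carmichaeli* Debeaux used in herbal medicine, at 20 (low), 100 (medium) or 500 (high) µg/mL for 24 h. In batch A, cells received vehicle or 10 µM wortmannin, which blocks PI3K signalling, for 24 h. Batch is used here as the labels name it. The lines differed in medium, plating density and gas, HT29 being kept with added carbon dioxide and SW1783 without. Line and these culture conditions therefore cannot be told apart. The study asked which of brain and intestine is the main site of ACD action, and the comparisons below ask how these genes took part in that response.

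Cells leave G1 and begin to copy their DNA when CDKs phosphorylate the retinoblastoma protein RB and release E2F transcription factors. D-type cyclins activate CDK4 and CDK6 in response to growth signals, and E-type cyclins, whose genes are themselves E2F targets, activate CDK2 at the start of S phase. INK4 proteins bind CDK4 and CDK6 and keep D-type cyclins off, whereas CIP/KIP proteins bind cyclin-CDK complexes and mainly restrain CDK2. CDKN1A is a classical target of p53 and of several stress pathways, CDKN2B is known for its induction by TGF-beta, and CDKN2C is itself an E2F target in proliferating cells.

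The libraries of SW1783 held 18863863 to 26436867 counts and those of HT29 held 15941255 to 33866644. The colon epithelium markers EPCAM and KRT20 were at 524.4 and 260.7 CPM (counts scaled to a common library total) on average in HT29 and near 0 in SW1783. Of the other genes listed for HT29, KRT18 (3618 CPM), CDH1 (436.4 CPM) and VIL1 (183.3 CPM) were expressed there, and CDX2 was at 6.007 CPM. KRT18 was also expressed in SW1783 (185.4 CPM), where CDH1, VIL1 and CDX2 were near 0. Of the 6 genes listed for SW1783, VIM (4560 CPM), CD44 (2525 CPM), COL1A2 (1730 CPM) and SOX9 (67 CPM) were expressed, whereas the astrocyte markers GFAP and S100B were near 0, at 0.102 and 0.0854 CPM. CD44 and SOX9 were also expressed in HT29 (512.4 and 134.4 CPM). The second high-dose library of HT29 stood apart. The log2 ratio of normalised counts had an SD over genes of 0.532 and 0.506 between it and the other 2 libraries of its group, against 0.159 between those 2 and at most 0.255 within any other group. The values of the 10 genes against vehicle in that group are therefore given with and without it. Tests at the other doses in HT29 and between the lines in batch B share an estimate of the spread that includes this library. Vehicles with the same replicate number in batches A and B were as close to each other (SD 0.086 to 0.144) as replicates of a group, and no statement below treats batches A and B as repeats of each other. The labels do not say whether replicates were separate cultures, so p-values measure the spread between these libraries, which may be technical.

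In vehicle-treated cells, levels were compared between genes in TPM, a transcript abundance scale corrected for gene length and depth, in batch B (mean ± SD, n = 3). The length was that of all annotated exons of a gene joined, 9255 bases for CDKN1B and 2996 for CDKN1A. The order of genes in both lines depends on this choice of length. In SW1783, CCND1 (138.3 ± 7.08 TPM) and CDKN2C (131.6 ± 2.89 TPM) were the highest and overlapped, so the level of this INK4 inhibitor could not be separated from that of the leading D-type cyclin. CCND3 followed at 61.88 ± 1.37 TPM and CCNE1 at 38.65 ± 3.44 TPM, each apart from its neighbours. CCNE2 (29.96 ± 1.62 TPM) overlapped with both CDKN2B (32.59 ± 1.14 TPM) and CDKN1A (29.28 ± 1.11 TPM), while every library of CDKN2B lay above those of CDKN1A. CDKN2D (19.55 ± 1.58 TPM), CDKN1B (10.93 ± 0.221 TPM) and CDKN1C (1.273 ± 0.338 TPM) came last.

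In HT29 the D-type cyclins and CCNE1 had the highest means, with CCND1 at 84.4 ± 7.24 TPM, CCND3 at 36.3 ± 1.06 TPM and CCNE1 at 23.94 ± 3.58 TPM, the last overlapping with CDKN2D at 22.07 ± 1.17 TPM. CDKN1A (16.06 ± 0.238 TPM) and CDKN1B (13.34 ± 1.01 TPM) followed apart from each other. CCNE2 (8.763 ± 0.859 TPM) overlapped with both CDKN2C (10.71 ± 1.41 TPM) and CDKN2B (8.377 ± 0.417 TPM), and CDKN1C was again the lowest at 1.945 ± 0.338 TPM.

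**Figure D1:**
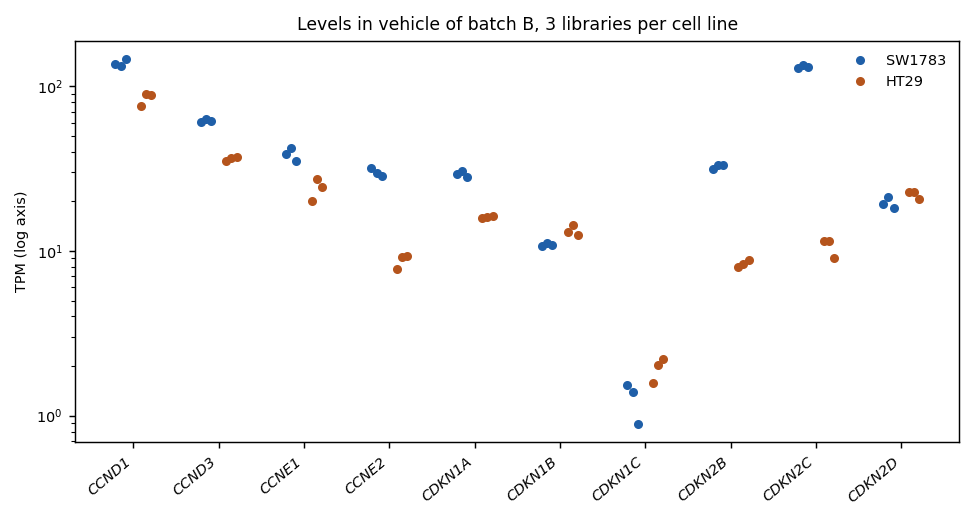
TPM (log axis) of the 10 genes in the 3 vehicle libraries per cell line of batch B, SW1783 in blue and HT29 in orange, 1 point per library. CDKN2C differs most, with about 132 TPM in SW1783 and 10.7 TPM in HT29.

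A differentially expressed gene (DEG) was a gene with an adjusted p-value under 0.05 (Wald test of DESeq2, Benjamini-Hochberg over all genes of the comparison) and a change of more than 1.5-fold, and the words higher, lower, rose and fell are used of DEGs. Between vehicle-treated SW1783 and HT29, 52.2% of the genes tested were DEGs. Of the 10 genes, 5 were, 3 of them higher in SW1783 (28.1% of all genes were higher), and all 10 passed the adjusted p-value alone, as did 64% of all genes. CDKN2C had 2158, 2240 and 2206 normalised counts in SW1783 and 259.7, 230.1 and 184.6 in HT29. This was a log2 difference of 3.30 ± 0.08 (SE), or 9.84-fold, with an adjusted p below what DESeq2 prints. CDKN2B was higher in SW1783 by 1.65 ± 0.08 (log2) and CCNE2 by 1.45 ± 0.10, and their libraries did not overlap between the lines. CDKN1B (-0.61 ± 0.07) and CDKN1C (-0.93 ± 0.30) were lower in SW1783, and CDKN1B lost the 1.5-fold mark without HT29 vehicle replicate 1 (-0.57) or 2 (-0.58). RB1, which encodes the protein that G1 cyclin-CDK complexes phosphorylate, differed far more, with 150.2 ± 11.54 normalised counts in SW1783 and 2760 ± 227.3 in HT29 (log2 -4.20 ± 0.11). CDKN2A, the remaining INK4 gene, was higher in SW1783 (log2 1.12 ± 0.11).

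At the high dose of ACD in SW1783, 6 of the 10 genes were DEGs, against 18.2% of the 19494 genes tested. The 4 that fell were CDKN2C, CCNE2, CCND3 and CCNE1 (9.55% of all genes fell), and the 2 that rose were CDKN2B and CDKN1A (8.63% of all genes rose). Both E-type cyclins and 1 of the 2 D-type cyclins among the 10 were thus lower. Of the INK4 genes among the 10, CDKN2C fell, CDKN2B rose and CDKN2D was not a DEG. Since these are bulk samples, a change in the share of cells at a stage of the cycle and a change in RNA per cell cannot be told apart. The share of counts from the mitochondrial ribosomal RNA genes was 0.932 ± 0.025% in vehicle, 7.83 ± 0.199% at the medium dose and 5.93 ± 0.150% at the high dose (SD, n = 3), and its part in these results was not tested. Scaling to total counts instead of DESeq2 size factors moved every log2 value at the high and medium doses by about -0.11.

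Gene positions are from GENCODE v44 on GRCh38. CDKN2C (ENSG00000123080, chr1:50960745-50974634), which holds CDK4 and CDK6 inactive, showed the largest change among the 10. Its normalised counts were 1992, 2071 and 2039 in vehicle and 508.2, 434.2 and 478.9 at the high dose. All 3 treated libraries lay far below all vehicles, a log2 fold change of -2.11 ± 0.06 (4.31-fold lower, adjusted p = 1.65e-264). The gene shares 617 exonic bases with an antisense gene, and the strand setting of the authors' counting was not stated, so reads of the partners may not have been separated.

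CCNE2 (ENSG00000175305, chr8:94879770-94896678), the second E-type cyclin, had 711.1, 665 and 648.4 normalised counts in vehicle and 220, 200.9 and 224.5 at the high dose. The groups were far apart and the log2 fold change was -1.65 ± 0.10 (3.14-fold lower, adjusted p = 1.05e-60). Its exons share 1633 bases with antisense genes, the longest such overlap of the 10, with the same limit. CCNE1 (ENSG00000105173, chr19:29811991-29824312) fell less, from 489.8, 524.8 and 446.5 to 292.9, 295.5 and 293.7 normalised counts (log2 -0.73 ± 0.10, adjusted p = 5.44e-13). The treated libraries of CCNE1 were almost equal and all below the vehicles.

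CCND3 (ENSG00000112576, chr6:41934934-42050357), a partner of CDK4 and CDK6, had 1779, 1855 and 1845 normalised counts in vehicle and 1090, 1054 and 1011 at the high dose (log2 -0.80 ± 0.05, adjusted p = 9.24e-57). The other D-type cyclin was not a DEG. CCND1 had 3300, 3215 and 3604 normalised counts in vehicle and 3317, 3156 and 3273 at the high dose, so its groups overlapped. The 95% interval of its log2 fold change was -0.15 to 0.04. The overlap of CCND1 depends on the scaling. In TPM all 3 treated libraries (116.1, 111.3 and 114.3) lay below all vehicles (135.9, 132.7 and 146.2). With scaling to total counts CCND1 passed the adjusted p-value, with a negative log2 fold change under the 1.5-fold mark.

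CDKN2B (ENSG00000147883, chr9:22002903-22009305), the TGF-beta-inducible INK4 inhibitor, rose from 638.4, 676.3 and 689 to 1915, 1866 and 1826 normalised counts. All treated libraries lay well above all vehicles, with a log2 fold change of 1.48 ± 0.06 (2.8-fold, adjusted p = 3.29e-136). CDKN1A (ENSG00000124762, chr6:36676460-36687337), the stress- and p53-inducible inhibitor of CDK2, rose by a similar amount, from 445.7, 464.3 and 438.2 to 1175, 1230 and 1244 normalised counts (log2 1.44 ± 0.07, 2.71-fold, adjusted p = 1.74e-84). CDKN1A shares 146 exonic bases with the antisense gene DINOL. CCND1 shares 497 such bases with LTO1 and CCND3 shares 24 with another antisense gene, with the same limit.

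The other 3 inhibitors were not DEGs at this dose. CDKN2D had 147.6, 163 and 141.5 normalised counts in vehicle and 194.5, 183.8 and 202 at the high dose. Its groups did not overlap and its adjusted p was 0.0311, but the log2 fold change of 0.36 ± 0.14 was under the 1.5-fold mark, and the adjusted p was 0.156 with scaling to total counts and 0.0383 to 0.128 when single libraries were left out. With CDKN2D, 7 of the 10 passed the adjusted p-value alone, as did 46.4% of all genes. CDKN1B had a log2 fold change of 0.09 ± 0.08 (95% interval -0.07 to 0.25), a value that was -0.02 with scaling to total counts. CDKN1C was counted so thinly (11.45 to 25.25 normalised counts) that its log2 fold change of 0.55 ± 0.41 had an interval of -0.25 to 1.35, and a moderate change was not detectable at this depth.

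**Figure D2:**
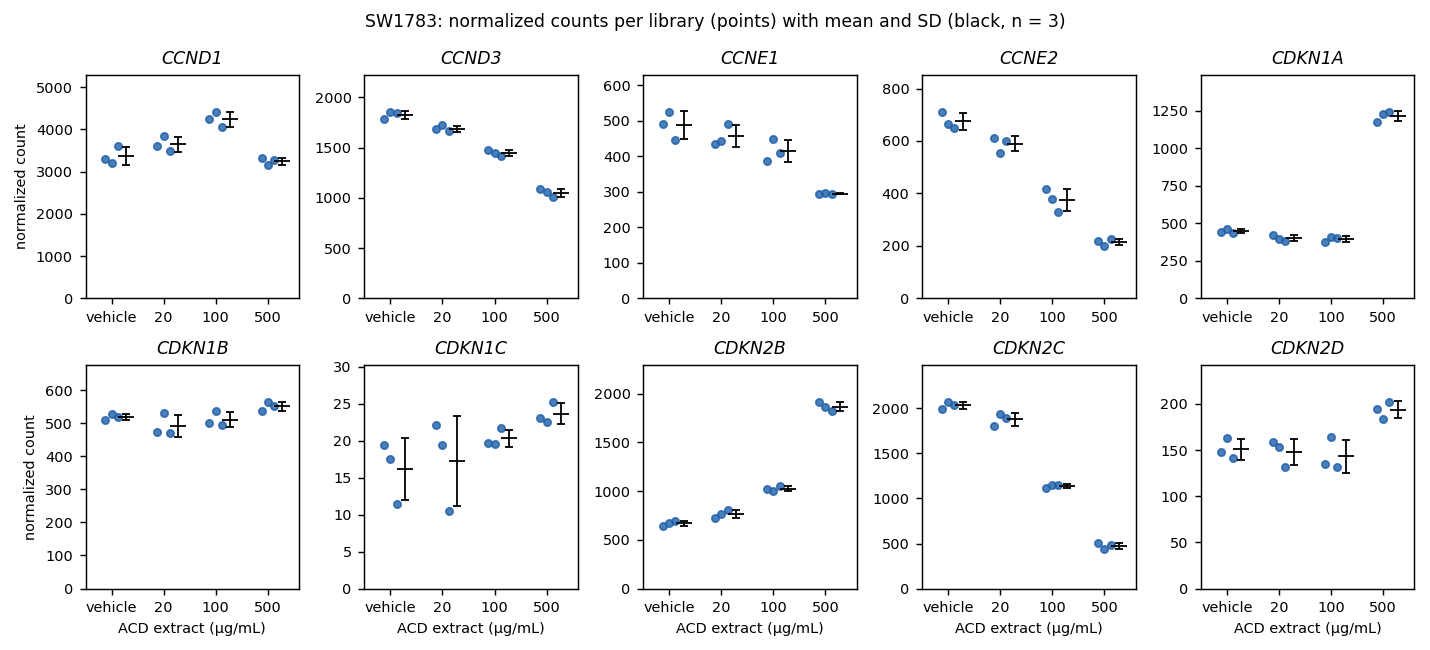
Normalised counts of the 10 genes in SW1783 by ACD dose (vehicle, 20, 100 and 500 µg/mL), 1 point per library, with mean and SD in black (n = 3). CDKN2C and CCNE2 step down at 100 and again at 500 µg/mL, CDKN2B steps up at both, and CDKN1A rises only at 500 µg/mL.

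The sequences just upstream of the annotated start are shown for the 2 genes that rose, CDKN1A and CDKN2B, and for one that fell from each of the inhibitors and the cyclins, CDKN2C and CCNE1. They are RefSeq sequences on GRCh38.p14, 5′ to 3′ on the strand of the gene, and capitals mark matches to any of 5 motifs searched on both strands. These were the GC box (GGGCGG), the CCAAT box (CCAAT), the TATA box (TATAAA), the core of the cAMP response element (TGACGT) and an E2F site (TTTNNCGC). CDKN2C has 3 annotated windows, of which the first is printed. The CDKN1A stretch lies within the bounds of the gene, outside its exons, because longer transcripts start further upstream, and the other stretches lie outside the gene.
CDKN1A (chr6:36678464-36678709, plus strand): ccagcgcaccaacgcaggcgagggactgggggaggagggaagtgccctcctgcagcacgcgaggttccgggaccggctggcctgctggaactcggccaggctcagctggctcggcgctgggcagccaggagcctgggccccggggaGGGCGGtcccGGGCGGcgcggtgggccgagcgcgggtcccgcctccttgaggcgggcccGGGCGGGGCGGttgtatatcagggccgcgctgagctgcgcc
CDKN2B (chr9:22009306-22009555, minus strand): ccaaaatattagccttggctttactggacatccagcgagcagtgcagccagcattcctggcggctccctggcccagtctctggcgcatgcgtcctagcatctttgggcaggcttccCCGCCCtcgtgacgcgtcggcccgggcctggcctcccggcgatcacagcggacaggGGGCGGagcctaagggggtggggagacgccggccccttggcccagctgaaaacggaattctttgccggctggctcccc
CDKN2C (chr1:50960495-50960744, plus strand): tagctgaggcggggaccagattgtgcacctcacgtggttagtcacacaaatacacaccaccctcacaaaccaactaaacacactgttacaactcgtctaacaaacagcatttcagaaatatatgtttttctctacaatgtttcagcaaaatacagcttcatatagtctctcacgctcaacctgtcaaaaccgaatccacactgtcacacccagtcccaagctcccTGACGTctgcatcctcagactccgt
CCNE1 (chr19:29811741-29811990, plus strand): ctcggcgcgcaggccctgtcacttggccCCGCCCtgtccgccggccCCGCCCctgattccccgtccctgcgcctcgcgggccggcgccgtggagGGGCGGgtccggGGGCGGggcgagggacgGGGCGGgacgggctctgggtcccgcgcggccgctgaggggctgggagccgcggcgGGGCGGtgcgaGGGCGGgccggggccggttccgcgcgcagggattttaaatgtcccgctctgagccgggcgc
Of the 10 genes, 7 had windows of 250 bases before to 50 after a start, 11 windows in all. The GC box was in 9 of the 11 windows and in 45% of all 35116 windows. The CCAAT box was in 5 of 11 and in 34.6% of all, the cAMP response element core in 2 of 11 and in 7.98% of all, and the E2F site in 1 of 11, that of CDKN2D, and in 6.89% of all. None of the 11 held the TATA box, found in 11.5% of all. GC boxes stood both upstream of a gene that rose (CDKN1A, 4 matches in the window) and of one that fell (CCNE1, 7 matches), and the 3 windows of CDKN2C, which fell, held 0 (the one printed), 6 and 1. The 2 cAMP response element matches were both in CDKN2C windows. A match is only a match of letters.

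The medium dose of ACD in SW1783 gave 3 DEGs among the 10, against 3.82% of the 14111 genes tested. All comparisons with vehicle in batch B share the same 3 vehicle libraries. CDKN2C had 1116, 1149 and 1147 normalised counts (log2 -0.84 ± 0.05 against vehicle, adjusted p = 3.5e-54) and CCNE2 had 415, 379.3 and 330.7 (log2 -0.85 ± 0.09, adjusted p = 1.2e-18). Both were thus below all vehicles and above all high-dose libraries. CDKN2B had 1019, 1002 and 1056 normalised counts, between vehicle and high dose (log2 0.62 ± 0.06, adjusted p = 8.32e-22), a value that dropped below the 1.5-fold mark, to 0.51, with scaling to total counts.

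Another 3 genes, all cyclins, passed the adjusted p-value at the medium dose without reaching 1.5-fold. The adjusted p-value alone was thus met by 6 of the 10 and by 29.5% of all genes. CCND1 was at 4255, 4417 and 4050 normalised counts, above all vehicles (log2 0.33 ± 0.05, adjusted p = 4.6e-11), the opposite side from CCND3 (log2 -0.34 ± 0.05, adjusted p = 3.88e-11). CCNE1 had a log2 fold change of -0.23 ± 0.09 (adjusted p = 0.0445). CDKN1A, which rose at the high dose, was at 375.6, 411 and 402.4 normalised counts. All 3 libraries lay below all vehicles, but the log2 fold change of -0.18 ± 0.08 did not pass (adjusted p = 0.0779). The sizes of these differences depend on the scaling. In TPM, CDKN1A was at 20.67, 22.47 and 22.26 against 29.16, 30.45 and 28.25 in vehicle. The libraries of CCND1 overlapped in TPM, at 147.4, 152 and 141 against 135.9, 132.7 and 146.2 in vehicle.

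Between the high and medium doses, 4 of the 10 genes were DEGs, against 10.2% of the genes tested, and 8 passed the adjusted p-value alone, as did 40.8% of all genes. CDKN1A had the largest step, with a log2 difference of 1.62 ± 0.07 (3.07-fold, adjusted p = 1.31e-101). CDKN2C was lower by a further -1.27 ± 0.06, CCNE2 by -0.80 ± 0.10, and CDKN2B was higher by 0.86 ± 0.06. The level of CCND1 was below that at the medium dose in all 3 high-dose libraries (log2 -0.39 ± 0.05, adjusted p = 3.87e-15), without reaching 1.5-fold. CCND1 and CDKN1A therefore did not move steadily with dose, while CDKN2C, CCNE2, CCND3, CCNE1 and CDKN2B had means that went one way from vehicle through medium to high.

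At the low dose, none of the 10 genes was a DEG, against 0.118% of the 9324 genes tested. DESeq2 gave an adjusted p for 8 of them, all but CDKN1C and CDKN2D. With an unadjusted p under 0.05 there were 6 (5.01% of all genes with a p-value), and the quasi-likelihood test of edgeR also gave 0 DEGs. The nearest was CDKN2B, with 729.1, 760.9 and 811 normalised counts, all above the vehicles (log2 0.20 ± 0.06, adjusted p = 0.0545).

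Other cell cycle genes were counted alongside the 10 in SW1783. Of the 23 genes of the CDK, RB and E2F core, 8 fell and 2 rose at the high dose, where 9.55% of all genes fell and 8.63% rose. E2F7, an E2F repressor, rose from 2062 ± 34.51 to 7215 ± 139.5 normalised counts (log2 1.81 ± 0.03), while its relative E2F8 (log2 -1.47 ± 0.17) and SKP2 (log2 -1.17 ± 0.09), a ubiquitin ligase subunit that removes p27, fell. Of 20 S phase genes 12 fell, among them RRM2 (log2 -1.32 ± 0.04), MCM3 (-1.22 ± 0.04) and TYMS (-1.14 ± 0.06), and none rose. Of 18 genes of G2 and mitosis 15 fell, led by KIF20A (log2 -1.62 ± 0.05) and MKI67 (-1.43 ± 0.04). The medians of the S phase and mitosis lists were -0.71 and -0.78, against -0.01 over all genes tested and 0.02 over the 10 genes. At the medium dose 2 of the 20 S phase genes and none of the 18 mitotic genes fell, where 3.82% of all genes were DEGs. The medians of these lists were still below that of all genes, at -0.38 and -0.25 against -0.00.

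Lists of pathways known to act on the 10 genes were counted as well. Of 24 p53 targets tested, 5 rose and 3 fell at the high dose in SW1783, where 8.63% of all genes rose and 9.55% fell. The 3 with the largest change, SESN2 (log2 2.74 ± 0.07), GADD45A (2.39 ± 0.06) and TNFRSF10B (2.24 ± 0.04), are also known to respond to cellular stress, and SESN2 is on the stress list too. Of 10 genes of the integrated stress response, 9 rose, with ATF3 at a log2 fold change of 4.73 ± 0.16 and DDIT3 at 3.91 ± 0.06. At the medium dose 9 of these 10 also rose. Of 12 genes that report ERK activity, 9 rose at the high dose and 2 at the medium dose. Of 9 TGF-beta targets none rose and 3 fell at the high dose, SMAD6 (log2 -1.69 ± 0.13), PMEPA1 (-1.07 ± 0.04) and BAMBI (-0.59 ± 0.12). Of 12 FOXO targets 3 rose and 2 fell at the high dose. Whether any of these pathways acted on the 10 genes here was not tested.

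In HT29, 1 of the 10 genes was a DEG at the high dose, against 2.91% of the 16470 genes tested, and it was CDKN1A. It had 387.9, 346.1 and 358.6 normalised counts in vehicle and 588.3, 521.4 and 524.2 at the high dose. The groups did not overlap, and the log2 fold change of 0.59 ± 0.11 (adjusted p = 3.02e-06) was at the edge of the 1.5-fold mark. It was 0.61 without the library that stood apart, but under the mark, at 0.55, 0.58 and 0.53, without vehicle replicate 2, vehicle replicate 3 or high-dose replicate 1, and 0.58 with edgeR. The mitochondrial ribosomal RNA share was 1.18 ± 0.0398% in vehicle and 12 ± 0.634% at the high dose in HT29, and its part in the result was not tested. Scaling to total counts moved log2 values at this dose by about -0.15 and CDKN1A to 0.44.

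The library that stood apart set much of the spread of the other genes. CCND1 had 3699, 2720 and 3540 normalised counts at the high dose, CDKN2B 275.1, 181.2 and 259.1, and CDKN2D 172.5, 306 and 191.9, with replicate 2 at the far end each time. Without it, the log2 fold change of CCND1 was 0.25 (adjusted p = 0.00137) and that of CDKN2D -0.46 (adjusted p = 0.0138), both under 1.5-fold, against 0.13 ± 0.11 and -0.19 ± 0.19 with it. The count of DEGs among the 10 was 1 in either case.

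The cyclins that fell in SW1783 were not DEGs in HT29. CCND3 had 1653, 1520 and 1571 normalised counts in vehicle and 1598, 1511 and 1563 at the high dose, with a 95% interval of the log2 fold change of -0.14 to 0.11. The log2 fold change of CCNE2 had an interval of -0.19 to 0.33. For CCNE1 all 3 high-dose libraries (540.3, 576.1 and 499.5) lay above all vehicles (403.8, 482.2 and 443.7), the side opposite to SW1783, but the adjusted p was 0.0937. CDKN2C was at 185.6, 213.7 and 187.4 against 283.3, 251.7 and 201.1 in vehicle (log2 -0.33 ± 0.15, adjusted p = 0.18). Without the library that stood apart the log2 fold changes were 0.22 for CCNE1 (0.27 with it), -0.05 for CCNE2 (0.07 with it) and -0.39 for CDKN2C, none with an adjusted p under 0.05, and that of CCND3 had an adjusted p of 0.999. The values without it were 0.10 for CDKN1B, 0.08 for CDKN2B and -0.56 for CDKN1C, against 0.18, -0.06 and -0.65 with it.

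At the medium dose in HT29 no gene of the 10 was a DEG, against 0.849% of all genes tested. The library that stood apart entered this test through the shared estimate of the spread. Fits on only the groups compared, which leave it out, also gave no DEG among the 10 at the medium and low doses. CDKN1A was the only one of the 10 to pass the adjusted p-value alone (2.18% of all genes did), with 507.9, 447.9 and 491.5 normalised counts (log2 0.41 ± 0.11, adjusted p = 0.00974). With an unadjusted p under 0.05 there were 2, CDKN1A and CDKN1C (6.26% of all genes with a p-value), and edgeR gave 0 DEGs. At the low dose there was again no DEG (0.315% of all genes), 1 gene had an unadjusted p under 0.05 (4.22% of all genes with a p-value), and edgeR gave 0. That gene was CDKN1A, with 454.1, 401.3 and 485.3 normalised counts, all above the vehicles (log2 0.30 ± 0.11, adjusted p = 0.268). CDKN1A means in HT29 thus went up over vehicle, low, medium and high dose, from 364.2 to 446.9, 482.5 and 544.6 normalised counts. In TPM, which is scaled differently, these means were 16.06, 21.01, 22.36 and 21.19. The order of the doses among themselves therefore depends on the scaling. Between the high and medium doses none of the 10 was a DEG (0.699% of all genes), with or without the library that stood apart. With it, 1 gene, CDKN1B, had an unadjusted p under 0.05 (5.22% of all genes with a p-value), and edgeR gave 0 DEGs.

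**Figure D3:**
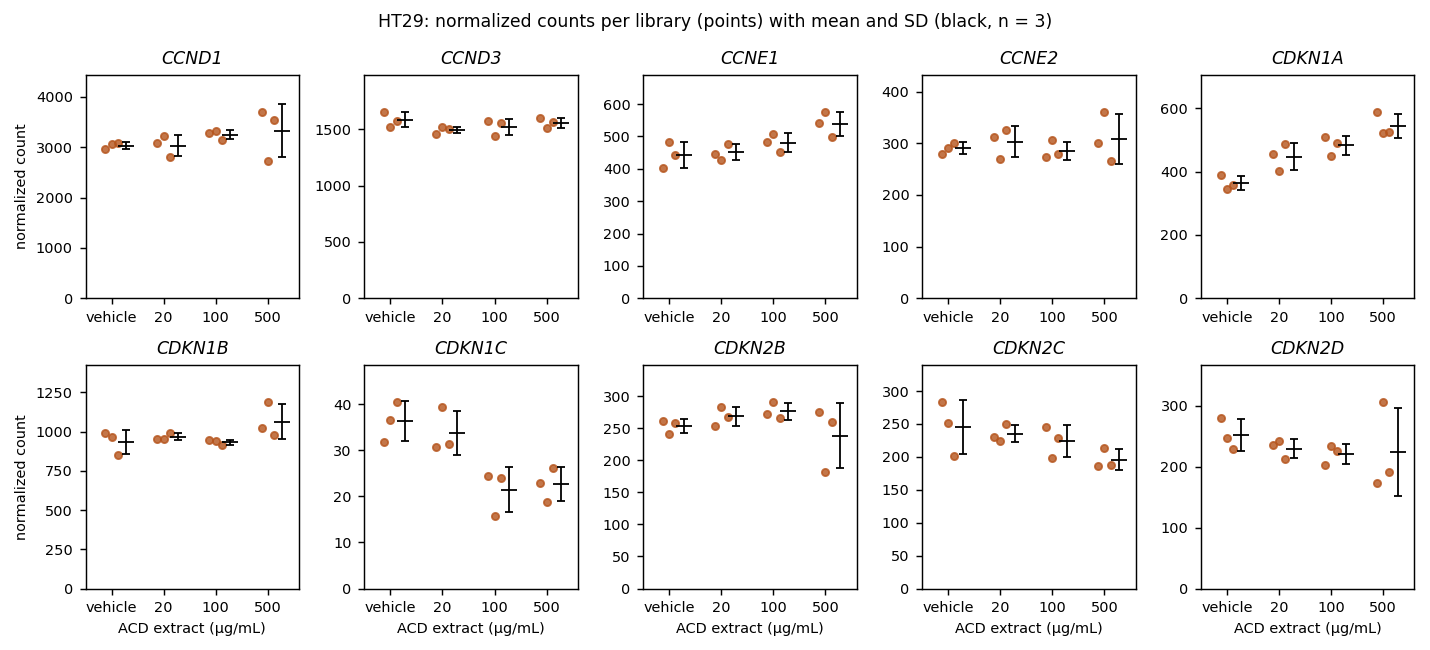
Normalised counts of the 10 genes in HT29 by ACD dose (vehicle, 20, 100 and 500 µg/mL), 1 point per library, with mean and SD in black (n = 3). CDKN1A lies above vehicle at every dose, and the second library at 500 µg/mL departs from its group in CCND1, CDKN2B and CDKN2D.

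No gene of the S phase, mitosis or CDK, RB and E2F core lists was a DEG at the high dose in HT29, with or without the library that stood apart. Of the 10 stress response genes, 9 rose there too, with CHAC1 at a log2 fold change of 2.99 ± 0.17 and ASNS at 2.08 ± 0.14, and 8 rose without that library (CHAC1 3.07, ASNS 1.88). Of the 24 p53 targets tested, SESN2 rose (log2 1.12 ± 0.14), and BTG2 (-1.01 ± 0.09) and SESN1 (-0.73 ± 0.12) fell, against 1 that rose and 3 that fell without that library. At the medium dose in HT29 none of the 10 stress response genes rose.

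The difference between the lines was tested itself, as the interaction of line and treatment over the 24 libraries of batch B. At the high dose 7 of the 10 genes differed, against 15.1% of the 17743 genes tested. The log2 fold change in SW1783 was lower than that in HT29 for CDKN2C, by -1.81 ± 0.13 (adjusted p = 3.66e-43). The same held for CCNE2 (-1.75 ± 0.15), CCNE1 (-1.03 ± 0.13) and CCND3 (-0.83 ± 0.07), and all of these fell in SW1783. The log2 fold change in SW1783 was higher for CDKN2B (1.48 ± 0.12, adjusted p = 1.66e-33), CDKN1A (0.80 ± 0.11) and CDKN1C (1.15 ± 0.43, adjusted p = 0.0299). The value of CDKN1C rests on few reads and lost its call, with an adjusted p of 0.0532 to 0.101, when any of 7 single libraries was left out. Without the HT29 library that stood apart the count was again 7, with CDKN2D (0.76, adjusted p = 0.000183) in place of CDKN1C. CCND1 (-0.23 ± 0.12), CDKN1B (-0.13 ± 0.10) and, with all libraries, CDKN2D (0.52 ± 0.22, adjusted p = 0.0678) were not DEGs, and CDKN2D was one, at 0.60, with scaling to total counts.

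At the medium dose 3 of the 10 genes differed between the lines, against 3.33% of all genes tested, and 6 passed the adjusted p-value alone (10.4% of all genes). The log2 fold change in SW1783 was lower than that in HT29 for CCNE2 (by -0.85 ± 0.15) and CDKN2C (by -0.73 ± 0.12). Both genes fell in SW1783 and were not DEGs in HT29 at this dose. CDKN1A differed by -0.61 ± 0.12 (adjusted p = 8.45e-06), the opposite sign to that at the high dose, with a log2 fold change of -0.18 in SW1783 and 0.41 in HT29. This value fell under the 1.5-fold mark, to -0.57, when HT29 vehicle replicate 2 or the first medium-dose library of either line was left out.

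**Figure D4:**
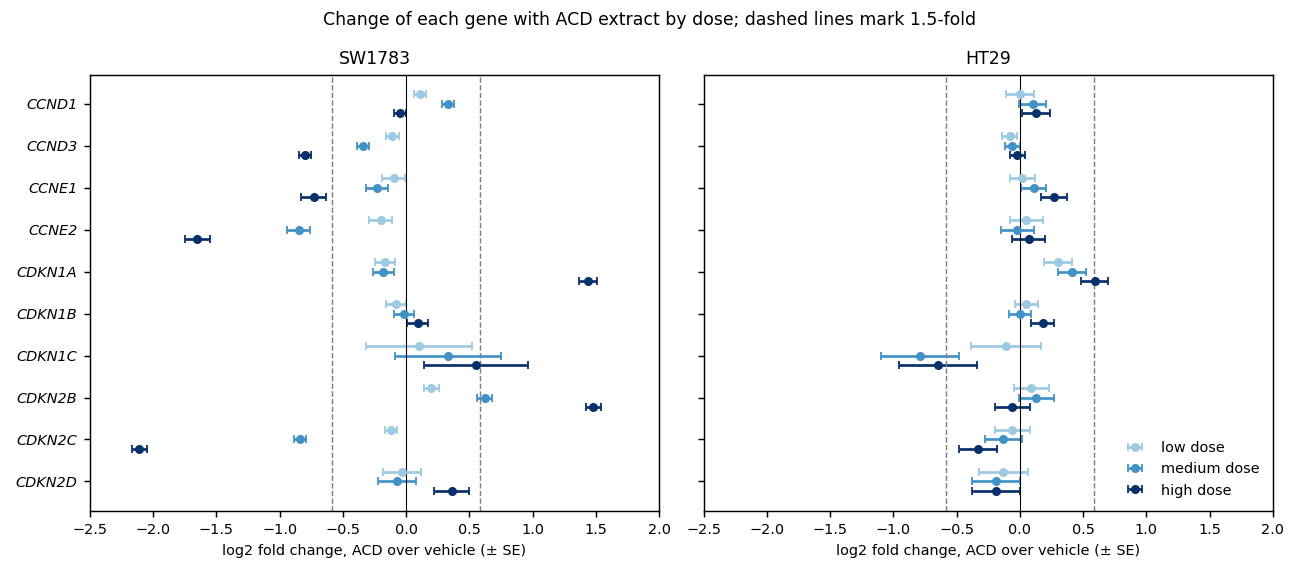
Log2 fold change against vehicle (± SE) of the 10 genes at the low, medium and high dose in SW1783 and HT29, with dashed lines at 1.5-fold. In SW1783, CDKN2C reaches -2.11 and CDKN2B 1.48 at the high dose, whereas in HT29 only CDKN1A (0.59) is past the line with an adjusted p under 0.05.

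Wortmannin was included by the study as a positive control. In SW1783 none of the 10 genes was a DEG, against 2.71% of the 14530 genes tested. Without the fold threshold 5 passed the adjusted p-value in DESeq2, as did 32.5% of all genes, edgeR gave 0 DEGs, and 6 had an unadjusted p under 0.05 (19.9% of all genes with a p-value). CDKN2B had 774.4, 740 and 904.3 normalised counts in vehicle and 1059, 1058 and 1035 with wortmannin (log2 0.38 ± 0.07, adjusted p = 1.75e-06). CDKN1A went from 560.1, 528.7 and 554.1 to 684.5, 681.2 and 740.9 (log2 0.36 ± 0.08, adjusted p = 4.84e-05), and CDKN1B, a known FOXO target restrained by PI3K signalling, from 653.9, 584.1 and 624.4 to 714.7, 738.1 and 759.3 (log2 0.25 ± 0.08, adjusted p = 0.00532). For these 3 inhibitors all treated libraries lay above all vehicles. CCNE2 lay below in all 3 libraries (log2 -0.24 ± 0.07, adjusted p = 0.00511), CCND1 had a log2 fold change of 0.10 ± 0.04, and CDKN2C one of 0.02 ± 0.04 with an interval of -0.07 to 0.10. Of 12 FOXO targets 5 rose, among them TXNIP (log2 0.77 ± 0.12), and 6 of 20 S phase genes fell.

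In HT29, wortmannin gave 1 DEG among the 10, against 2.74% of the 13162 genes tested. CCNE2 had 283.6, 230.4 and 252.9 normalised counts in vehicle and 398, 379 and 371.5 with wortmannin, so that the groups did not overlap (log2 0.59 ± 0.12, adjusted p = 4.51e-05). The call was at the edge of the fold threshold. It was lost without vehicle replicate 2 (0.52), vehicle replicate 3 (0.58) or wortmannin replicate 1 (0.56). Another 5 genes passed the adjusted p-value alone, 6 with CCNE2, against 19.7% of all genes. CDKN2C went from 240.6, 235.4 and 206.1 to 147.3, 156.7 and 163.8 normalised counts (log2 -0.54 ± 0.15, adjusted p = 0.00306), and CDKN2D from 294.6, 225.5 and 208.1 to 186.7, 171.8 and 155.5 (log2 -0.49 ± 0.17, adjusted p = 0.0226). Without vehicle replicate 3 these INK4 genes passed the 1.5-fold mark as well, at -0.61 and -0.59. CDKN1B was at 785.4, 766 and 762 normalised counts, below its vehicles at 916.9, 911.1 and 921.8 (log2 -0.25 ± 0.08, adjusted p = 0.00964), the side opposite to SW1783. CCNE1 had a log2 fold change of 0.27 ± 0.10 and CCND1 one of 0.22 ± 0.06. CDKN2A fell (log2 -0.65 ± 0.09), and 9 of 18 genes of G2 and mitosis fell, led by CCNB1 (log2 -0.96 ± 0.06). Among the FOXO targets, 2 of 12 rose, TXNIP (log2 0.75 ± 0.06) and INSR (0.70 ± 0.10), and none fell. A link between FOXO targets and CDKN1B was not tested in either line.

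**Figure D5:**
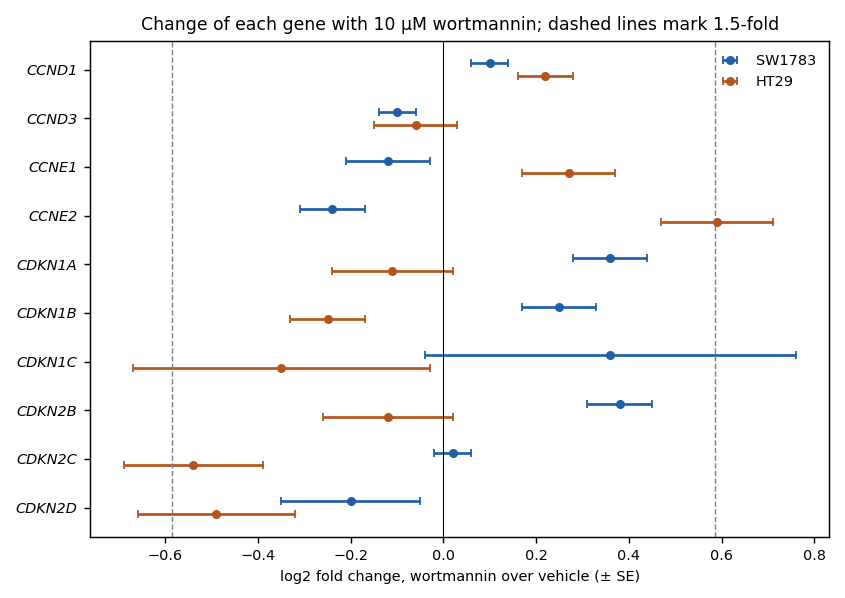
Log2 fold change of 10 µM wortmannin over vehicle of batch A (± SE) for the 10 genes, SW1783 in blue and HT29 in orange, with dashed lines at 1.5-fold. The value of CCNE2 is negative in SW1783 and positive in HT29, and that of CDKN1B the other way round.

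The interaction of line and wortmannin over the 12 libraries of batch A gave 1 DEG among the 9 genes with an adjusted p, against 3.36% of the 13645 genes tested, and 6 passed the adjusted p-value alone (14.8% of all genes). It was CCNE2, with a log2 difference of -0.86 ± 0.12 (adjusted p = 8.1e-11). CDKN1B differed by 0.48 ± 0.09 (adjusted p = 3.01e-06) and CDKN2C by 0.54 ± 0.11 (adjusted p = 1.71e-05), both under the fold threshold, and CDKN2C passed it at 0.60 without HT29 vehicle replicate 3. ACD at the high dose and wortmannin were run in different batches, each against its own vehicle. Set side by side in SW1783, the log2 fold changes were -2.11 and 0.02 for CDKN2C, -1.65 and -0.24 for CCNE2, 1.48 and 0.38 for CDKN2B, and 1.44 and 0.36 for CDKN1A. The difference between the treatments was not tested.

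Genes with the pattern most like that of the genes described here over the 18 libraries of a line were found among 11379 genes in SW1783, by the Pearson correlation of log2 normalised counts. These are descriptions, since the 18 libraries share groups, batches and vehicles. In SW1783, CCND3 was followed most closely by TNFRSF19 (r = 0.99), CCNE2 by MCC (0.99), CDKN2B by IRS2 (0.99) and CDKN1A by ZC3H12C (0.98). As many as 567 genes had an r over 0.95 with CDKN2C. Among the 10 themselves, CDKN2C, CCND3 and CCNE2 ran together (CDKN2C with CCND3, r = 0.98) and opposite to CDKN2B (CCND3 with CDKN2B, r = -0.97). CDKN2B and CDKN1A were alike at only 0.84, and CCND1 had no close partner among the 10 (highest r = 0.18, with CCNE1). In HT29, over 10918 genes, none of the 9 genes with enough counts had a partner with an r over 0.95. The nearest to CDKN1A there was GDF15, a stress-induced cytokine, with an r of 0.94.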

How the data were processed

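RNA-seq was analysed for 36 libraries, 3 in each of 12 groups. The authors trimmed the 100-base paired-end reads of directional libraries with Trim Galore (0.6.5), aligned them to GRCh38 with STAR (2.7.3a) and quantified genes with RSEM (1.3.3); these versions are from the submitters' processing notes, and the study's methods give others for the first 2 tools and also write hg19 beside GRCh38. The deposited table holds RSEM expected counts per gene and library, not normalized; 8.84% of the values were not whole and were rounded. The strand setting was not stated. TPM was computed here from the counts and GENCODE v44 exon lengths. Positions and overlaps are from GENCODE v44 and entered no test.

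Differential expression was tested two-sided with DESeq2 (1.42.0, R 4.3.3), whose Wald test the study names, with its size factors and independent filtering at 0.05, without a replicate block. All genes with a count entered each fit: 12 libraries per line for ACD, 6 for wortmannin, and 24 or 12 for differences between lines. DEGs had an adjusted p under 0.05 and over 1.5-fold change. The script was tested on simulated data. Log2 values are ± SE and levels ± SD. Alternatives were edgeR 4.0.16, TMM or total-count scaling, a minimum of 10 counts in 3 libraries, a replicate block, fits on the compared groups only, no fold threshold, and leaving out single libraries (66 fits). A count of 0 allows up to 3 counts, and such limits cover counting error only. The 10 genes and all lists were chosen with earlier results of these data known. From each other list, at most 3 DEGs per comparison were eligible to be named, those with the largest change whose groups did not overlap and whose normalized counts averaged at least 100. The most alike gene of each member was the one with the highest correlation of log2(normalized count + 1) among genes with a mean of 100 or more. That of CDKN2C in SW1783 is not reported here.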

Additional observations from a re-analysis of the deposited data

Results flagged for a closer look

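The responses of the lines differed by a test of the difference itself, the interaction of line and treatment in DESeq2, for 7 of the 10 genes at the high dose of ACD. As SW1783 minus HT29 on the log2 scale, the values were -1.81 for CDKN2C, -1.75 for CCNE2, -1.03 for CCNE1, -0.83 for CCND3, 1.48 for CDKN2B, 0.80 for CDKN1A and 1.15 for CDKN1C, the last resting on few counts. At the medium dose the differences were -0.85 for CCNE2, -0.73 for CDKN2C and -0.61 for CDKN1A, so that the difference of CDKN1A had opposite signs at the medium and high doses. With wortmannin the difference was -0.86 for CCNE2.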

How the results depend on the processing

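Of the 1780 values recomputed for the 10 genes under the alternatives, 1746 kept their direction and their side of the threshold or moved by less than their spread, 24 lost the call, 6 gained it and 4 that were not called moved further, and no called value changed sign. The 6 DEGs of SW1783 at the high dose were 6 under each alternative that kept the fold threshold. In HT29 at the high dose the count of 1 became 0 with edgeR, with TMM-derived size factors, with total counts as size factors and with the filter on low counts, and was 0 to 1 when single libraries were left out. With wortmannin in HT29 the count ranged from 0 to 2 when single libraries were left out, and for the line difference with wortmannin from 1 to 2. The adjusted p alone, without the fold threshold, gave 7 genes in SW1783 at the high dose, 6 at the medium dose, 8 between the high and medium doses, 5 with wortmannin in SW1783, 1 in HT29 at the medium dose, 6 with wortmannin in HT29, 6 for the line difference at the medium dose, 6 for that with wortmannin and 10 between the vehicle-treated lines. For CDKN1A in HT29 the value lies at the threshold, so small shifts decide the call.

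Within the comparisons made, replicate numbers did not pair the libraries. The correlation of deviations between same-numbered libraries of the groups compared ranged from -0.46 to 0.33, in no comparison were all 3 over 0.1, and in none did every library correlate best with its own number. With a replicate block, the count in HT29 at the high dose was 0, with CDKN1A at 0.58, and the call of no other gene of the 10 changed. The adjusted p of CDKN2D in SW1783 at the high dose, under the fold threshold in any case, was 0.0591 with the block. Same-numbered HT29 vehicles of both batches, which entered no common comparison, had an SD of log2 ratios of 0.086 to 0.144, against 0.116 to 0.255 between replicates within those groups. Leaving out a library of a group leaves 2, and the spread is then shared with the other groups. Depth limits CDKN1C in particular, whose standard error was 0.28 to 0.42 within a line.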
